A study of Mus musculus with 12 samples.

Results

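The mitochondrial carriers examined here are the autosomal protein-coding genes of GENCODE mouse release M21 named Slc25a with a number, together with the uncoupling proteins Ucp1, Ucp2 and Ucp3. There were 46 of them among 20807 autosomal protein-coding genes. The question was which of these genes held a peak of MOF, the acetyltransferase that modifies lysines of histone H4, within 1 kb of an annotated transcription start site, and whether carriers used by most tissues differed in this from carriers used by few. MOF was mapped by sequencing of immunoprecipitated chromatin (ChIP-seq) in visceral white adipose tissue (WAT) of C57BL/6 mice aged 8 weeks on a standard diet. The labels give the strain as C57BL/6, and the study's methods name C57BL/6J for the backcross. Mof+/+ mice were wild type and Mof+/- mice were heterozygous for Mof throughout the body, so cells other than adipocytes carried the same genotype. The labels describe 12 libraries in 6 groups of 2, with MOF ChIP, H3 ChIP and input in each genotype. The measurements used here are 2 peak lists, 1 for each genotype, with no value for a single library.

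Carriers of this family are encoded in the nucleus and sit, with few exceptions, in the inner mitochondrial membrane, where each moves a particular metabolite, nucleotide, ion or cofactor between cytosol and matrix. In white fat they are known for exporting citrate for fatty acid synthesis, for the malate and succinate traffic that goes with it, and for taking in acylcarnitines for oxidation. The uncoupling proteins are close relatives, and Ucp1 is the heat-producing carrier of brown fat. Many members come in paralogous pairs in which 1 gene is used by most tissues and the other by few. Carriers were sorted into 23 broadly expressed, 12 tissue-restricted and 11 of unassigned breadth from general knowledge of where they are used. The peak lists hold no expression, and these classes were not checked in this tissue. The study also sequenced mRNA of visceral WAT, which was not used here.

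A peak list without replicates gives no spread between animals, and no statistical test was made. There were 19773 Mof+/+ and 731 Mof+/- peaks. Each peak has a fold enrichment, the ratio of the fragments at its summit to the background that the input gives there with 1 added to each, and a −log10 p for the same excess. The lowest background at a summit was 3.52 fragments for Mof+/+ and 2.26 for Mof+/-. The lists give no read totals, so the depth behind these values is unknown. The same threshold also stood for a stricter p in the Mof+/- list, whose weakest peak had a −log10 p of 4.72. The Mof+/- list gives no value for a site that was not called, and absence of a peak is not absence of MOF. Of 6 adipocyte genes chosen as markers, Adipoq, Plin1 and Cfd had a Mof+/+ promoter peak while Fabp4, Pparg and Lep had none. Of 5 brown adipocyte markers, 0 had a promoter peak, and 42.7% of all autosomal protein-coding genes had one. Some calls turned on the 1 kb window. The nearest peak lay 659 bp from a start site at Adipoq, 809 bp at Cfd and 1014 bp at the brown adipocyte marker Ppargc1a. The nearest peak of Pparg lay 2223 bp away. By ChIP-qPCR in WAT, the paper reports MOF at the promoter of the main Pparg isoform. Peaks do not show expression, so these counts do not check the tissue.

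Promoter sequence is shown for carriers on which the comparison of classes turned, with every CpG site in capitals. All runs come from the RefSeq promoter table for GRCm38.p6, read 5′ to 3′ on the strand of the gene, and stop before the exons of the gene. The uncoupling proteins are shown because Ucp2 had Mof+/+ peaks and its neighbours in the family had none. Ucp2 (chr7:100493108-100493336, plus strand) held 13 CpG sites in 229 bases, all of them under a Mof+/+ peak. Ucp3 (chr7:100472741-100472989, plus strand) held 3 in 249 bases, and Ucp1 (chr8:83290098-83290347, plus strand) held 12 in 250 bases, and neither run was touched by a peak.
Ucp2: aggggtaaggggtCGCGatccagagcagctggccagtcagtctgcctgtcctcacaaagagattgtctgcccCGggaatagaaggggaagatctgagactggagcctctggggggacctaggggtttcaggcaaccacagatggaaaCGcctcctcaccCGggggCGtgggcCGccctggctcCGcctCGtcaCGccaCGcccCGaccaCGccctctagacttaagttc
Ucp3: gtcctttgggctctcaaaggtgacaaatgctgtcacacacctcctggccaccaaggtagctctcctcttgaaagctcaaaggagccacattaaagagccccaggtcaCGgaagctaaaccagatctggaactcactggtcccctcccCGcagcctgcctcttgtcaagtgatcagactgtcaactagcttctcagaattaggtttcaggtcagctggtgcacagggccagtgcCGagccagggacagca
Ucp1: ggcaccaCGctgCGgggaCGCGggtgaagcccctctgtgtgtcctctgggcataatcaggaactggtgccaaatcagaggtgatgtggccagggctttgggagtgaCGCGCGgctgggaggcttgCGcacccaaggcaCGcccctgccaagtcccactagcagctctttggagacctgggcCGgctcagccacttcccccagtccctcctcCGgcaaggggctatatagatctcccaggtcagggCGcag

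The next runs contrast carriers with and without a Mof+/+ peak. Slc25a3 (chr10:91124060-91124217, minus strand) lay under the strongest peak of the family and held 12 CpG sites in 158 bases. Slc25a28 (chr19:43674882-43675131, minus strand), a mitoferrin, held 17 in 250 bases, in the gap between its 2 peaks. Slc25a33 (chr4:149774278-149774517, minus strand) is broadly expressed and Slc25a31 (chr3:40708621-40708854, plus strand) is a testis gene. Their runs held 21 CpG sites in 240 bases and 17 in 234 bases, with no peak at either gene. Slc25a29 (chr12:108835884-108836126, minus strand) and Slc25a47 (chr12:108850879-108851128, plus strand) are neighbours whose main start sites had 24 CpG sites in 243 bases and 6 in 250 bases.
Slc25a3: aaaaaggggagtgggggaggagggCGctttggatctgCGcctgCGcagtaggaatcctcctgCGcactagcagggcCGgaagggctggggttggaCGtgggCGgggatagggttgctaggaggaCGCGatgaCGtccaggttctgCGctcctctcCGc
Slc25a28: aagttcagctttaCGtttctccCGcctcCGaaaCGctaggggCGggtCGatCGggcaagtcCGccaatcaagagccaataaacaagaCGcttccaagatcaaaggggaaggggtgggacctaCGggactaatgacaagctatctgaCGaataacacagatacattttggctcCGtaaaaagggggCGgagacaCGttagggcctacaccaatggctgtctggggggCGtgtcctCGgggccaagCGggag
Slc25a33: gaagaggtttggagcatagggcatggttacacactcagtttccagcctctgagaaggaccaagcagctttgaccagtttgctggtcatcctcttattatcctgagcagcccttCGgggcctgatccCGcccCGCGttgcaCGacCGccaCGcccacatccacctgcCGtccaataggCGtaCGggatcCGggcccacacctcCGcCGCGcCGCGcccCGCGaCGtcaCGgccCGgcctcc
Slc25a31: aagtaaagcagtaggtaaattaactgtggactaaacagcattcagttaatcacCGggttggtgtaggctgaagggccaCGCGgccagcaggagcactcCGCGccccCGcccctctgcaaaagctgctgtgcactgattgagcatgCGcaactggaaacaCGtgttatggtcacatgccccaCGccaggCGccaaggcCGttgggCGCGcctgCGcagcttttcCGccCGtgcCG
Slc25a29: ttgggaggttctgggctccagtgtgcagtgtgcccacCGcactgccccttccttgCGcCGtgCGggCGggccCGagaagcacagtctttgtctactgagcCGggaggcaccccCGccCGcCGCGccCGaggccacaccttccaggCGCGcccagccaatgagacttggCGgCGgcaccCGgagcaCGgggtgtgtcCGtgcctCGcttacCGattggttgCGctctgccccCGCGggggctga
Slc25a47: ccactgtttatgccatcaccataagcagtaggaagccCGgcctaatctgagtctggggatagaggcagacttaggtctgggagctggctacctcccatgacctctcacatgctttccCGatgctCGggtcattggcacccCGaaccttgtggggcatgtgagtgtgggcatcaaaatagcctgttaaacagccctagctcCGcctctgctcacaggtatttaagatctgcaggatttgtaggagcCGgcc

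In the Mof+/+ list, 25 of the 46 carriers (54.3%, 95% Wilson interval 40.2 to 67.8) had a promoter peak, beside 42.7% of all autosomal protein-coding genes. The interval, which covers counting error only, included the share over all genes. Of the 23 broadly expressed carriers, 16 had a peak (69.6%, 49.1 to 84.4), and of the 12 tissue-restricted carriers 1 had a peak (8.33%, 1.49 to 35.4). The difference was 61.2 percentage points (95% Newcombe interval 27.3 to 77.6, counting error only). With the carriers of unassigned breadth counted as tissue-restricted, 9 of 23 in that class had a peak (39.1%) and the difference was 30.4 points (1.79 to 53.0). The classes were assigned with earlier results of these data known. Carriers of unassigned breadth resembled the broadly expressed ones in share, with 8 of 11 (72.7%, 43.4 to 90.3). In the Mof+/- list 0 of 46 carriers had a promoter peak, which allows a share of up to 7.71%, beside 1.37% of all genes.

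**Figure D1:**
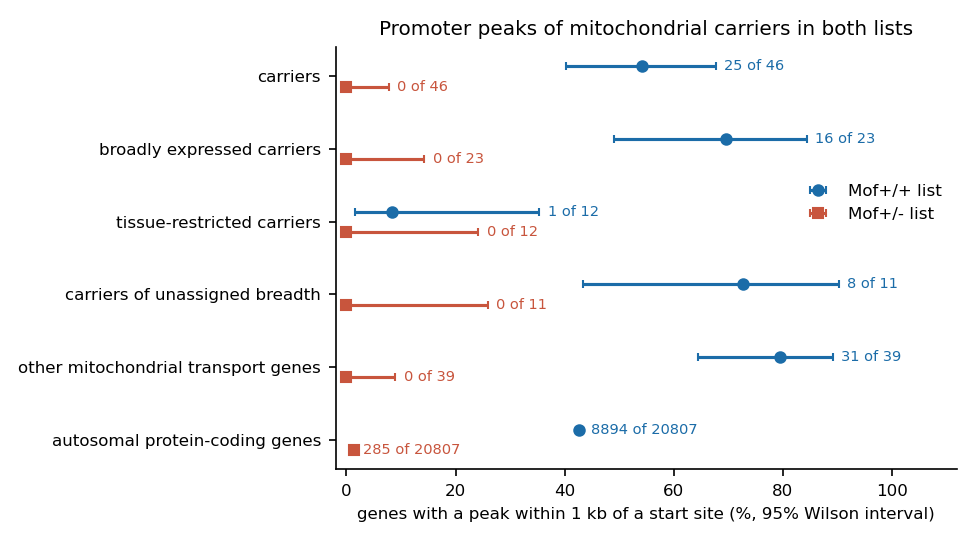
Share of genes with a peak within 1 kb of a start site (x axis, percent) for the carriers, their 3 classes, other mitochondrial transport genes and all autosomal protein-coding genes, in the Mof+/+ list (circles) and the Mof+/- list (squares), with 95% Wilson intervals and counts. Broadly expressed carriers stand at 69.6% and tissue-restricted ones at 8.33% in the Mof+/+ list, and every carrier class is at 0 in the Mof+/- list.

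The only tissue-restricted carrier with a peak was Slc25a47, a liver carrier related to the carnitine carrier. Both of its peaks lay at an alternative start site that faces Slc25a29, about 15 kb from its own main start site, and both were also counted for Slc25a29. With the main start site of each gene alone, 0 of 12 tissue-restricted carriers had a peak (upper limit 24.2%), beside 40.1% of all genes. The broadly expressed share stayed at 69.6%. The other 11 were Slc25a2, Slc25a18, Slc25a27, Slc25a31, Slc25a34, Slc25a37, Slc25a41, Slc25a48, Slc25a54, Ucp1 and Ucp3. Their nearest Mof+/+ peak lay 5.02 to 489 kb from a start site, with a median of 48.8 kb, and was within 10 kb in 1 of them.

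CpG content moved with these classes. Counts of CpG sites within a 1001 bp window on the main start site had a median of 80 in broadly expressed carriers (range 33 to 104), 28.5 in tissue-restricted carriers (13 to 68) and 63 in those of unassigned breadth (21 to 83), beside 45 over all genes. Among carriers at or above that median of 45, 13 of 18 broadly expressed carriers (72.2%) and 0 of 4 tissue-restricted carriers (upper limit 49.0%) had a peak, beside 67.8% of all genes in that band. The 4 were Slc25a27, Slc25a31, Slc25a37 and Slc25a48. Below the median, 3 of 5 broadly expressed carriers (interval 23.1 to 88.2%) and 1 of 8 tissue-restricted carriers (12.5%, 2.24 to 47.1) had a peak, beside 17.4% of all genes. Within the upper band the broadly expressed share was thus close to that of any gene with such a promoter. The part of CpG content in the difference between classes was not tested. At or above the median the classes differed by 72.2 points (interval 18.1 to 87.5), and below it by 47.5 points (-3.10 to 77.5). CpG counts still differed within the upper band, reaching 104 in broadly expressed carriers and 68 in tissue-restricted ones. In the middle of 3 CpG bands, 4 of 9 broadly expressed carriers (44.4%) had a peak, beside 45% of all genes in that band. There 0 of 6 tissue-restricted carriers had one (upper limit 39%), and the highest band held only 1 tissue-restricted carrier. Sites of the enzyme CviKI-1, used to cut the chromatin, numbered 30 at the median in broadly expressed carriers and 25 in tissue-restricted ones, beside 24 over all genes. Annotated start sites, each of which offers a window for a peak, also differed, with medians of 6 and 1.5 per gene.

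**Figure D2:**
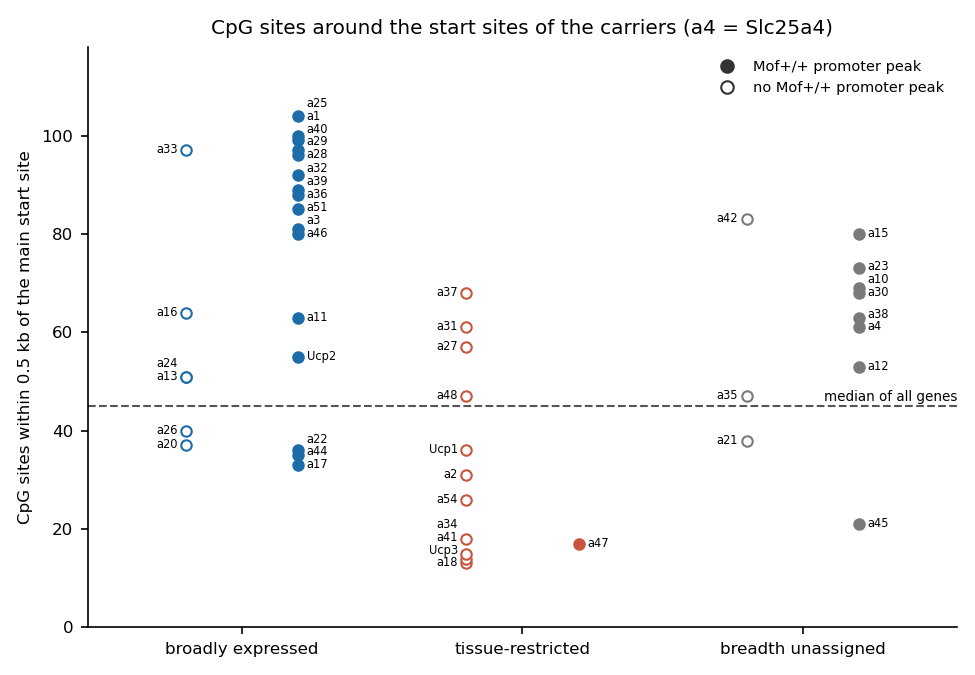
CpG sites within a 1001 bp window on the main start site (y axis) of the carriers by class, with 1 broadly expressed carrier not shown, and with filled points for carriers with a Mof+/+ promoter peak and open points for those without. The dashed line is the median of 45 over all autosomal protein-coding genes. Open points of the tissue-restricted class reach 68 sites, inside the range of the filled points of the broadly expressed class.

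The 7 broadly expressed carriers without a Mof+/+ promoter peak included Slc25a13, Slc25a16, Slc25a20, Slc25a24, Slc25a26 and Slc25a33. Slc25a16, a carrier linked to coenzyme A, had its nearest peak at 4.16 kb. Slc25a20, the carnitine/acylcarnitine carrier that admits fatty acids for oxidation, had its nearest peak at 11.8 kb. For Slc25a33, a pyrimidine nucleotide carrier, the distance was 36.4 kb although its start site had 97 CpG sites. For Slc25a24, Slc25a26 and Slc25a13 the distances were 95.5, 121 and 361 kb. Slc25a24 is an ATP-Mg/phosphate carrier, Slc25a26 imports S-adenosylmethionine, and Slc25a13 is citrin, an aspartate/glutamate carrier. Of the 7, 5 had at least the median CpG count of all genes. Among carriers of unassigned breadth, the oxodicarboxylate carrier Slc25a21, the carboxylate carrier relative Slc25a35 and the coenzyme A carrier Slc25a42 had no peak, with nearest peaks 33.1, 47.5 and 21.9 kb away.

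The strongest promoter peak of the 25 carriers had a median fold enrichment of 4.42 (quartiles 3.87 and 4.60, range 2.66 to 7.30), beside 3.98 (3.33 and 4.85) over the 8894 genes with a Mof+/+ promoter peak. The median −log10 p was 8.90, beside 7.94. Of the 25, 15 lay above the median fold enrichment of all genes with a peak and 19 above the median −log10 p. The summits held 13 to 32 fragments with a median of 21, so each fold rests on few fragments. Several carriers share the same value because their summits hold the same number of fragments over the same lowest background, as Slc25a10, Slc25a15 and Slc25a29 do at 19 fragments and a fold enrichment of 4.42.

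**Figure D3:**
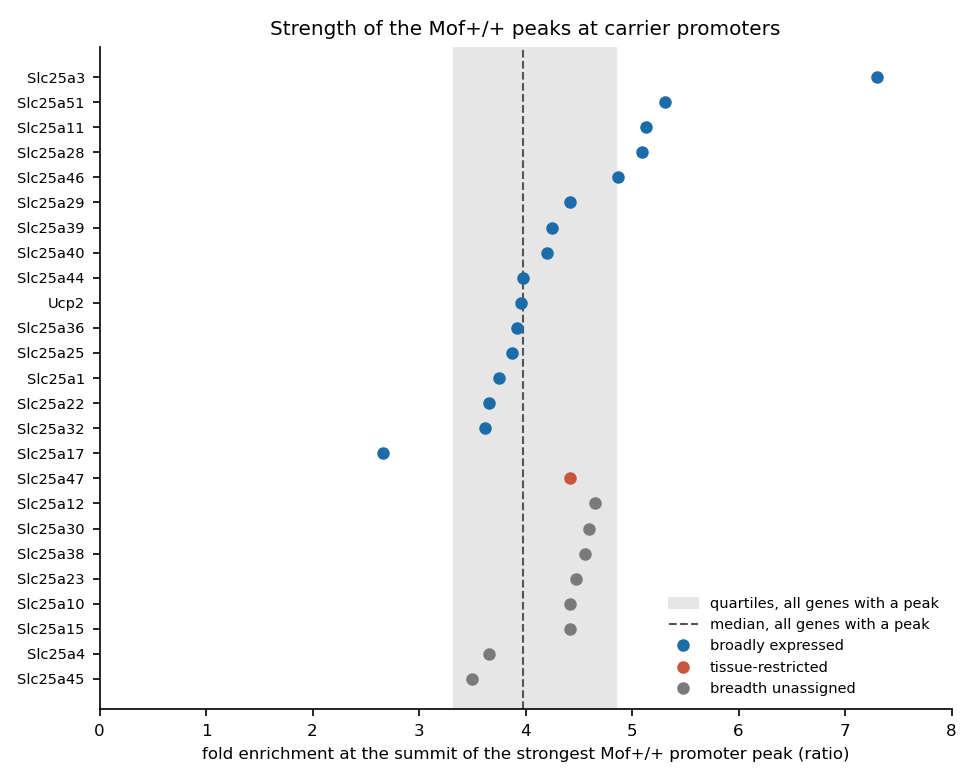
Fold enrichment (x axis, ratio) at the summit of the strongest Mof+/+ promoter peak of each of the 25 carriers with one, ordered within class. The dashed line and grey band are the median of 3.98 and the quartiles over all 8894 genes with a promoter peak. Slc25a3 stands alone at 7.30, and Slc25a17 at 2.66 is the only carrier below the grey band.

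The strongest peak belonged to Slc25a3, the phosphate carrier that supplies phosphate for ATP synthesis. It spanned chr10:91123395-91124480, with a fold enrichment of 7.30 from 32 fragments and a −log10 p of 20.4, and 98.0% of genes with a promoter peak had a weaker one by p. Next came Slc25a11, the oxoglutarate/malate carrier of the malate-aspartate shuttle, with a fold enrichment of 5.13 and a −log10 p of 12.4 over chr11:70646910-70648456, a peak shared with the start site of Rnf167. Slc25a51, which imports NAD, had 5.31 and 12.1 over chr4:45408394-45409490. Slc25a30, a kidney carrier related to the uncoupling proteins, had 4.60 and 11.5. The stronger of the 2 peaks of Slc25a28 had 5.09 and 11.3. Slc25a46, an outer membrane protein of mitochondrial dynamics, had 4.87 and 10.5. All 6 fold enrichments were at or above 4.60, whereas the weakest 4 by p were lower. Slc25a17, the peroxisomal carrier of cofactors, had the weakest peak, with a fold enrichment of 2.66 from 13 fragments and a −log10 p of 3.84, and 3.20% of genes with a promoter peak had a weaker one. The folate carrier Slc25a32 had a −log10 p of 6.40, the branched-chain amino acid carrier Slc25a44 7.41 and the carnitine carrier relative Slc25a45 7.57.

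The median distance between summit and nearest start site was 259 bp (quartiles 119 and 331), beside 192 bp (88 and 370) over all genes with a peak. In 17 of 25 carriers the summit was downstream of it (68.0%), beside 60.4% over all genes with a peak. The strongest peak covered an annotated start site in 18 of 25 carriers (72.0%), beside 74.4%, and the main start site in 14. The other 7 peaks left a gap to every start site, which was at most 100 bp except at Slc25a47, where it was 207 bp. Median width was 763 bp, beside 843 bp. A start site of another gene lay within 1000 bp of the same peak in 11 of 25 carriers, and for those the peak cannot be ascribed to the carrier alone.

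**Figure D4:**
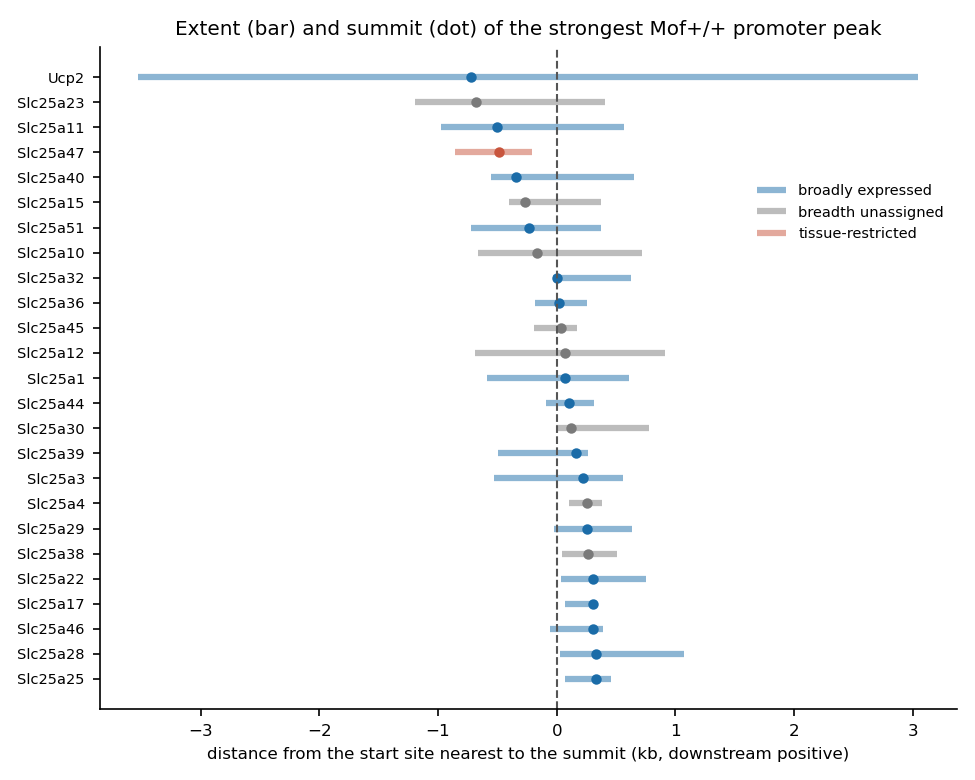
Extent (bars) and summit (points) of the strongest Mof+/+ promoter peak of 25 carriers, as distance in kb from the start site nearest to the summit, with downstream positive. Summits run from 0.334 kb downstream at Slc25a25 to 0.724 kb upstream at Ucp2, whose peak is the widest. The Ucp2 summit lies in a noncoding exon inside the gene, downstream of its main start site and upstream of an alternative one.

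The role groups hold at most 9 carriers each, so their counts only say which members had a peak, beside 42.7% of all genes, and no difference between groups is read from them. Of the nucleotide and phosphate carriers, 4 of 8 had a Mof+/+ promoter peak. In the ADP/ATP pair, Slc25a4 (ANT1), the carrier of heart and skeletal muscle, had a peak at chr8:46210651-46210930 with a fold enrichment of 3.66. Its breadth was left unassigned. The male germ cell carrier Slc25a31 (ANT4) had none although its start site has the same CpG count of 61. In the ATP-Mg/phosphate family, Slc25a23 and Slc25a25 had peaks, and Slc25a24, Slc25a41 and Slc25a54 had none. The peak of Slc25a23 had a fold enrichment of 4.47 and was shared with Crb3. Slc25a25 had 3 promoter peaks with fold enrichments of 3.87, 3.27 and 2.39 and a further intronic peak of 3.61.

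Amino acid carriers had a peak in 5 of 8 cases. Of the aspartate/glutamate carriers, Slc25a12 (aralar) had a peak with a fold enrichment of 4.65 over chr2:71366617-71368220 and Slc25a13 (citrin) had none. Of the ornithine carriers, Slc25a15 of the urea cycle had one with 4.42, and Slc25a2 had none within 5.02 kb. Of the glutamate carriers, Slc25a22 had one with 3.66, and the astrocyte carrier Slc25a18 had none within 48.8 kb. The glycine carrier of haem synthesis, Slc25a38, had a fold enrichment of 4.56 and Slc25a44 had 3.98. A second and stronger Mof+/+ peak overlapped the 3′ end of Slc25a44, with a fold enrichment of 6.42 and 28 fragments, and the start site nearest to it belongs to Pmf1.

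Among carboxylate carriers 3 of 6 had a peak, beside the same 42.7% of all genes. The citrate exporter Slc25a1 had a fold enrichment of 3.75 with 21 fragments over chr16:17927521-17928713. The dicarboxylate carrier Slc25a10, known for its high level in white fat, had 4.42 over chr11:120491178-120492555, and Slc25a11 had 5.13. Slc25a21, Slc25a34 and Slc25a35 had none. Of the cofactor and pyrimidine nucleotide carriers, 4 of 9 had a peak. Of the pyrimidine nucleotide pair, Slc25a36 had a peak with 3.92 and Slc25a33 had none.

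In the iron and glutathione group 3 of 4 had a peak, again beside 42.7% of all genes. Of the mitoferrins, which import iron, Slc25a28 had 2 peaks with fold enrichments of 5.09 and 3.21, and the erythroid carrier Slc25a37 had none within 489 kb. The glutathione importer Slc25a39 and its relative Slc25a40 both had a peak, with 4.25 and 4.20, and that of Slc25a40 was shared with Dbf4. Of the carnitine carrier and its relatives, 3 of 5 had a peak. Slc25a29, a carrier of basic amino acids, had 2 peaks of 4.42 and 2.74, Slc25a47 shared both of them, and Slc25a45 had 3.50. Slc25a20 and the choline carrier Slc25a48 had none.

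The uncoupling proteins and their relatives had a peak in 2 of 5 cases, at Ucp2 and Slc25a30, a share near the 42.7% of all genes. Ucp2, which is used by many tissues and strongly by immune cells, lay under a Mof+/+ peak of 6569 bp, chr7:100492555-100499123, with a fold enrichment of 3.96 and a −log10 p of 9.54. The widest promoter peak of any other carrier was 1609 bp. A second Mof+/+ peak, chr7:100499617-100504474, covered the 3′ part of Ucp2 with a fold enrichment of 6.81 and a −log10 p of 18.8. Ucp3, the muscle and brown fat gene that starts 20.3 kb upstream of Ucp2 on the same strand, had no peak within 19.6 kb. Ucp1 had none within 41.6 kb, and the neuronal Slc25a27 none within 438 kb. Adipose tissue holds immune cells as well as adipocytes, and bulk ChIP-seq cannot tell which of them carry a peak.

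Carriers lay within 100 kb of each other in 4 places, a set that was drawn up after the values were known. Ucp2 and Slc25a23 had a peak at their start sites, while the tissue-restricted neighbours Ucp3 and Slc25a41, 20.3 and 18.2 kb away, had none. Slc25a24 and Slc25a54, 42.7 kb apart, both had none. Slc25a29 and Slc25a47 shared 2 peaks that flank their divergent start sites, 1 inside each gene.

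**Figure D5:**
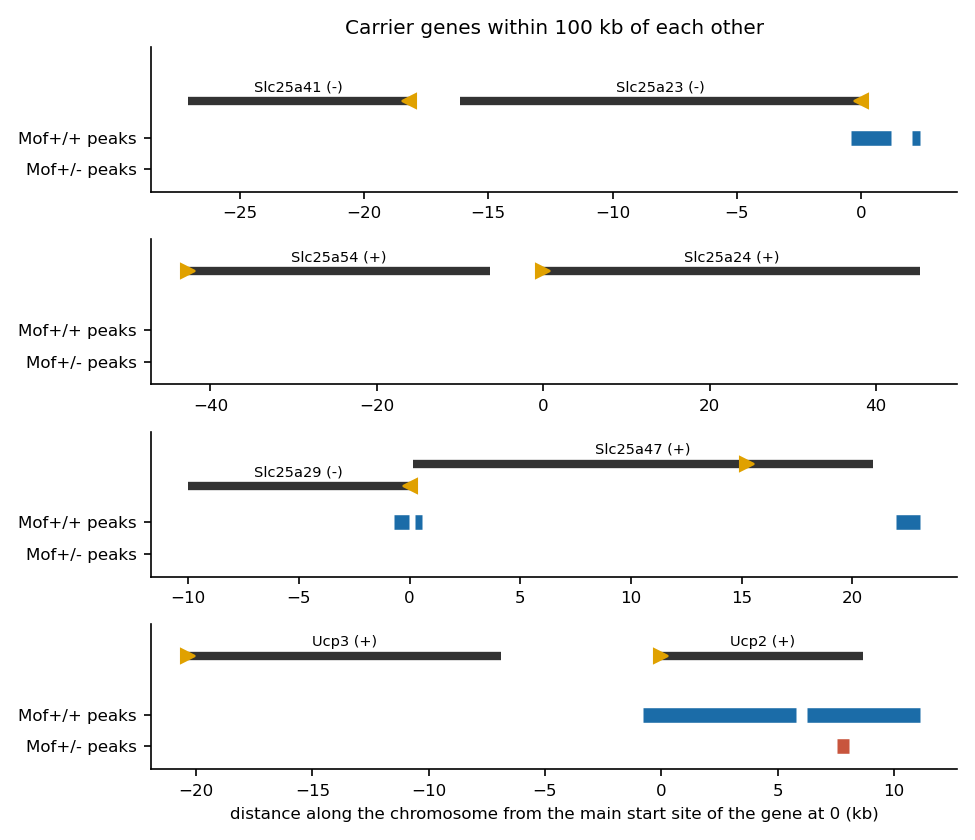
Genes (dark bars with an arrowhead at the main start site), Mof+/+ peaks and Mof+/- peaks around the 4 sets of neighbouring carriers, in kb along the chromosome from the main start site of the gene at 0. Mof+/+ peaks sit at the starts of Slc25a23, Slc25a29 and Ucp2, and the single Mof+/- peak lies 7.537 to 8.087 kb downstream of the Ucp2 start.

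In the Mof+/- list, Ucp2 was the only carrier with a peak within 3 kb of a start site. This peak, chr7:100500874-100501424, had a fold enrichment of 4.91 from 15 fragments and a −log10 p of 8.57. It lay 2.53 kb from the nearest Ucp2 start site, in the 3′ part of the gene, and overlapped the stronger of the Mof+/+ peaks there. Slc25a10 was the next closest, with a Mof+/- peak of 4.29 from 13 fragments 4.05 kb from its start sites, beyond the 3′ end of the gene, where no Mof+/+ peak was called. For the next carrier in order the distance was 27.9 kb, and over the 46 carriers its median was 1504 kb.

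Mof+/- promoter peaks were few over all genes as well. Of the 8894 genes with a Mof+/+ promoter peak, 278 (3.13%) had one in the Mof+/- list, and with 25 carriers a count of 0 cannot be told from that share. Of the 25, 24 had a Mof+/+ peak at or past the weakest −log10 p of the Mof+/- list, the exception being Slc25a17. With fragments and background divided by 1.56, the ratio of the lowest backgrounds, 23 remained past it, and Slc25a32 fell to 4.40. Under that scaling Slc25a3 would stand at a −log10 p of 14.2. These are calculations on the Mof+/+ peaks and not Mof+/- measurements, and the lists cannot be compared against the spread between animals. The ratio need not equal that of the depths, which is unknown, and the part of depth in the count of 0 was not tested.

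Other genes of mitochondrial transport were set beside the carriers, from a list of 39 autosomal genes of outer membrane channels, protein import, pyruvate, calcium and acylcarnitine transport and related functions. A Mof+/+ promoter peak was present in 31 of them (79.5%, 64.5 to 89.2), beside 42.7% of all genes, and a Mof+/- promoter peak in 0, beside 1.37%. At or above the median CpG count of all genes, 28 of 32 had a Mof+/+ peak (87.5%), beside 67.8% of all genes in that band. Their median CpG count was 70, above the 59 of the carriers, and their median fold enrichment was 3.95. The mitochondrial pyruvate carrier genes Mpc1 and Mpc2 had fold enrichments of 5.51 and 4.65. Fatty acids reach the matrix through a Cpt1 enzyme, Slc25a20 and Cpt2 in turn. Cpt1a and Cpt2 had a peak, with 4.20 and 4.65, and Cpt1b, Cpt1c and Slc25a20 had none. The examples named here were chosen after their values were seen.

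Motifs were searched in the RefSeq promoter windows of 300 bases, which were found for 35 of the 46 carriers, on both strands. The NRF1 motif GCGCATGC, which overlaps its own reverse complement, was present in Slc25a31 and Slc25a54, which are both testis genes without a peak, and in 3.81% of 15704 autosomal promoters. The ETS motif CCGGAAGT was present in Slc25a20 and in 5.74% of promoters. The YY1 motif AAGATGGC was present in Slc25a3 and in 3.28%. A match is a description of the letters in the window and not a binding site.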

How the data were processed

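Per the labels, MOF ChIP, H3 ChIP and input libraries came from visceral WAT of Mof+/+ and Mof+/- mice, and chromatin was cut with CviKI-1 and by sonication. The authors mapped paired reads to GRCm38 with snakePipes and called peaks with MACS2 (2.1.1.20160309.3) against input at a q-value threshold of 0.1. Whether replicates were pooled is not stated. The design text names 3 Mof+/- and 2 control animals, but the labels and the study's reporting summary give 2 per genotype. The labels and that summary also name different MOF antibodies. The deposited fold enrichment is the ratio of fragments at a summit to the background from input, with a pseudocount of 1 on both. The deposited −log10 p-value, together with a −log10 q-value used as a filter, belongs to the same summit. The deposited summit offset served as a coordinate. Peaks within 1000 bp had not been merged. The H3 libraries and signal tracks were not used here.

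Positions are in GRCm38 and 1-based. A gene had a promoter peak when any base of a peak lay within 1000 bp of any start site of its GENCODE M21 transcripts. The strongest peak by −log10 p stood for the gene. CpG sites were counted in 1001 bp around a main start site, taken from the best-ranked APPRIS transcript. Whole fragments at summits were solved from fold enrichment and p to within 0.001 in −log10 p. 4 peaks in each list gave no solution. Intervals are 95% Wilson or Newcombe intervals. Counting and intervals were tested on simulated data. Python 3.11.15, numpy 2.4.6, scipy 1.17.1 and matplotlib 3.10.9 were used.

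The members, the breadth classes and the list of other transport genes were chosen with earlier results of these data known. Every carrier was counted, and the values of 1 carrier are not reported here. Values were given for carriers with a Mof+/- peak within 3000 bp, the uncoupling proteins, the 6 strongest and 4 weakest Mof+/+ peaks by −log10 p, tissue-restricted carriers with a peak, broadly expressed carriers without one and all members of 8 families (ADP/ATP, uncoupling, mitoferrin, ornithine, aspartate/glutamate, glutamate, ATP-Mg/phosphate and carnitine-like). Peak values of Slc25a1, Slc25a10, Slc25a36, Slc25a38, Slc25a39 and Slc25a40, and distances to the nearest peak for other carriers without one, were added outside this rule, after they were seen. Alternatives changed the window, the q-value, the summit, the start sites, the assignment of peaks, shared promoters and the classes.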

Additional observations from a re-analysis of the deposited data

How the results depend on the processing

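The difference between broadly expressed and tissue-restricted carriers kept its direction under every alternative tried. It ran from 30.4 points, with carriers of unassigned breadth counted as tissue-restricted (interval 1.79 to 53.0), to 72.2 points among CpG-rich promoters. The classes were assigned with earlier results of these data known, so alternatives that keep them cannot support the difference. The tissue-restricted share moved from 8.33% to 0% with start sites of protein-coding transcripts only, beside 41.9% of all genes. It was also 0% without genes that have a start site of another gene within 1000 bp, beside 33.5%. With the main start site of each gene only it was 0% as well, beside 40.1%. The fall to 0% rests on Slc25a47 alone. With carriers of unassigned breadth counted in that class the share was 39.1%. Without shared promoters the broadly expressed share was 53.8% (7 of 13, 29.1 to 76.8) and the difference 53.8 points (10.7 to 76.8). Another gene started within 1000 bp at 9 of the 16 broadly expressed carriers with a peak and 1 of the 7 without. The share of other mitochondrial transport genes moved to 56.4% when peaks needed q of 0.001 or less, where that of all genes fell to 32.7%. The share of all carriers lay between 42.9%, without carriers that share a promoter (33.5% of all such genes), and 56.5%, within 3000 bp or by nearest start site (44.6% and 43.2% of all genes). The Mof+/- share of carriers was 2.17% within 3000 bp, through Ucp2, beside 1.75% of all genes, and 4.35% by nearest start site, through Ucp2 and Slc25a10, beside 1.66%. The alternatives of the main start site and of CpG-poor promoters were chosen after seeing the data. No paired analysis was possible because the peak lists, 1 per genotype, carry no replicate numbers, and for the same reason no replicate could be left out. With at most 32 fragments at a carrier summit, weaker binding may have gone uncalled.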

Other observations

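Carriers on the X chromosome were left out of the set and are given here as values. Of 4 such genes, Slc25a5, the ADP/ATP carrier ANT2, had a Mof+/+ promoter peak with a fold enrichment of 5.53 and a −log10 p of 13.0, 4 bp from a start site, and Slc25a14, a relative of the uncoupling proteins, had one with 3.76 and 6.69. Slc25a43 and Slc25a53 had none, with nearest peaks 51947 and 68234 bp away. A promoter peak was present in 107 of 948 protein-coding genes of the X chromosome (11.3%). None of the 4 had a Mof+/- promoter peak.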
